A study of Mus musculus with 12 samples.

Results

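The eribulin-resistant and vinorelbine-resistant derivatives of the mouse mammary cancer line PB3 were compared gene by gene. The comparison holds 6 of the 12 libraries of the study, chosen by their labels alone: 3 of the line named PB3-ERI-R (here ERI-R) and 3 of PB3-VIN-R (here VIN-R). The labels give the parental type as Er-/Pr-/Her2-, the treatments as Erubilin, with the spelling Eribulin in the protocol, and Vinorelbine, and concentrations of 300, 500 and 800 nM for the selection of resistant clones. They do not say how long the cells were exposed, at which concentration a library was made whether drug was present at harvest, or whether each line came from a single clone. Untreated parental cells (Control) and a paclitaxel-resistant derivative (PAC-R), each with 3 libraries, helped to set the spread between replicates and are quoted only where a level is needed beside the pair. No genotype, transgene or age is given, and nothing says that replicates came from separate cultures. The p-values therefore rest on the spread of these libraries alone, which may be technical. Polyadenylated RNA was sequenced, with 11141028 to 13376686 counts in each of the 6 libraries, and levels are in counts scaled to a common library size (CPM) after trimmed-mean scaling.

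Eribulin and vinorelbine both bind tubulin near the ends of microtubules and block their growth, whereas paclitaxel stabilises the polymer. Cells can survive such drugs by pumping them out, most often with P-glycoprotein, which mice make from Abcb1a and Abcb1b, by changing which tubulin isotypes and microtubule-binding proteins they hold, or by changing state. One well-known change of state is the epithelial-mesenchymal transition, in which factors such as Zeb1, Snai2 and Twist1 silence cadherins, claudins and keratins while Vim and Cdh2 rise. Mammary epithelium itself has a luminal layer, marked by Krt8, Krt18 and hormone receptors, and a basal layer, marked by Krt5, Krt14 and Trp63.

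Both lines share a feature that had to enter the fit. Lyz2, a macrophage lysozyme, stood at 354, 233 and 0 CPM in ERI-R 1, 2 and 3 and at 182, 1389 and 0 CPM in VIN-R 1, 2 and 3. The pan-leukocyte gene Ptprc (122, 74.7 and 0 against 59.1, 325 and 0 CPM) and the macrophage receptors Csf1r (58.0, 37.1 and 0 against 37.0, 209 and 0.0738 CPM) and Adgre1 (188, 129.99 and 0 against 128, 506 and 0 CPM) showed the same split. Replicates 1 and 2 of each line thus held macrophage RNA and replicate 3 held none or almost none, so this RNA cannot be told apart from whatever else the number 3 stands for. Summed over 28 leukocyte markers, the level was 2357, 1542 and 174 CPM in ERI-R and 1159, 7438 and 43.0 CPM in VIN-R. In ERI-R 3, 19 of the 28 were at 0, and in VIN-R 3, 18. The presence of macrophage RNA (Lyz2 above 100 CPM) was a term of the fit, and 48.8% of all genes tested differed between the libraries with and without it. ERI-R 3 also stood apart from its own line. Its log2 levels correlated with those of ERI-R 1 and 2 at 0.740 and 0.781, against 0.972 between that pair, and ribosomal protein genes took 17.02% of its counts against 3.90% and 5.20%. In VIN-R the correlations were 0.932, 0.908 and 0.787, and the ribosomal share ran from 3.86% to 6.96%. Some results below are given with and without ERI-R 3. The others come from the full fit alone, also where ERI-R 3 stands apart.

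Of 14226 genes tested, 29.7% were called at an adjusted p under 0.05 (edgeR quasi-likelihood test, Benjamini-Hochberg adjustment over all genes tested, which holds for every adjusted p here unless another tool is named). Genes called higher in ERI-R made up 13.9%, 1976 genes, and genes called lower 15.8%, 2251 genes. Of these, 1719 and 1827 differed at least 2-fold, and 709 and 585 at least 8-fold. The 3 ERI-R libraries did not overlap the 3 VIN-R libraries in 30.4% of the genes tested. Control stood closer to VIN-R than to ERI-R in 95.7% of the genes called higher and 96.4% of those called lower, and PAC-R in 98.8% and 99.2%. These shares describe group means and were not tested. Complete on-off differences were mostly in 1 direction: 94 genes had a mean of at least 5 CPM in ERI-R and at most 3 counts over the 3 VIN-R libraries, and 12 genes had the reverse. Counts in CPM do not show whether more cells or more RNA per cell made a difference, and these cannot be told apart here.

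The gene lists show where the calls fell. In the plot of list shares, the keratins of basal epithelium, epithelial junction genes and epithelial transcription factors stood far to the ERI-R side of the background, and the Zeb, Snail and Twist group, mesenchymal genes and targets of YAP and SRF to the VIN-R side. Interferon-stimulated genes and leukocyte markers lay below the background in both directions.

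**Figure D1:**
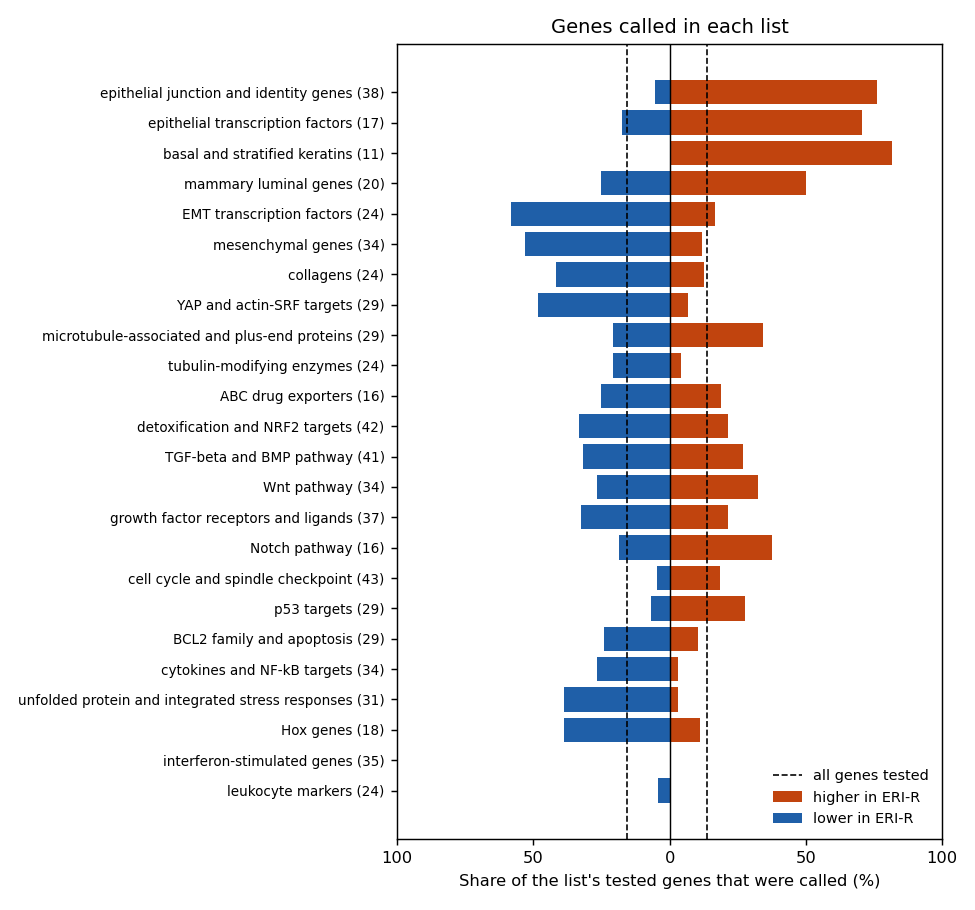
Share of each list's tested genes (number in brackets) called higher in ERI-R (orange, to the right) or lower in ERI-R (blue, to the left), in %. Dashed lines mark the shares over all genes tested, 13.9% higher and 15.8% lower; 29 of 38 epithelial junction genes were higher and 18 of 34 mesenchymal genes lower.

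Epithelial junction and identity genes were expressed in ERI-R and nearly silent in VIN-R. Of 38 tested members, 29 were higher in ERI-R and 2 lower, with a median log2 fold change of 6.04 (5.87 with the genes at 0 counts in VIN-R set to their lower bound) beside -0.07 over all genes tested. Cdh1, the adhesion protein E-cadherin, stood at 320.4, 297 and 94.4 CPM in ERI-R 1, 2 and 3 and at 0.920, 3.38 and 0.960 CPM in VIN-R 1, 2 and 3 (log2 fold change 7.01, SE 0.71, adjusted p = 7.7e-05). The groups were far apart, although ERI-R 3 held less than the other two. Epcam, an epithelial adhesion molecule, was level across ERI-R at 234, 244 and 228 CPM and stood at 0.502, 2.19 and 0.443 CPM in VIN-R (log2 fold change 7.92, SE 0.99, adjusted p = 0.00021). Cdh3, the P-cadherin of basal epithelium, had 21.03, 15.8 and 8.84 CPM in ERI-R and no count in VIN-R, at least 193-fold higher when 3 counts over the 3 VIN-R libraries are taken as the floor. Cldn7, a tight junction claudin, had 2 counts over all VIN-R libraries and 28.3, 45.8 and 117 CPM in ERI-R. Its ratio was 1061 (95% interval 293 to 8770.3), an interval that covers counting error only. Marveld3, also of tight junctions, had 1 count over VIN-R and 22.6, 16.3 and 21.3 CPM in ERI-R. Esrp1, which directs epithelial splicing, stood at 194, 148 and 119 against 0.0837, 1.28 and 0 CPM (log2 fold change 8.68, SE 1.11, adjusted p = 0.00024). In the untreated parental libraries Cdh1 stood at 12.9, 11.7 and 7.08 CPM and Epcam at 10.2, 8.13 and 4.63 CPM, between the lines and nearer to VIN-R.

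The factors that maintain epithelial identity differed in the same direction. Among 17 tested epithelial transcription factors, 12 were higher in ERI-R and 3 lower (median log2 fold change 7.14, and 7.13 with bounds). Ehf, an ETS factor of epithelia, stood at 182, 349 and 228 CPM in ERI-R and 0.0837, 1.28 and 0 CPM in VIN-R (log2 fold change 9.96, SE 1.62, adjusted p = 0.00097). Elf5, the ETS factor that directs the milk-producing lineage, stood at 19.4, 30.4 and 56.0 CPM in ERI-R and had 1 count over VIN-R, a ratio of 1208 (95% interval 216 to 47763). Ovol2, a zinc finger protein that restrains Zeb1, was read at 3.43, 4.42 and 7.15 CPM in ERI-R and not at all in VIN-R, at least 58.1-fold higher. Grhl2, a grainyhead factor of epithelial junctions, stood at 80.9, 70.0 and 33.8 CPM against 0, 0.731 and 0.0738 CPM (log2 fold change 7.98, SE 0.92, adjusted p = 0.00013). It was singled out after its values were seen. Trp63, the master factor of basal epithelium, stood at 78.3, 37.1 and 16.3 CPM against 0.0837, 1.10 and 0 CPM (log2 fold change 7.07, SE 0.81, adjusted p = 0.00013). The 3 that were lower in ERI-R were Gata3, a luminal factor (16.001, 5.03 and 11.05 against 86.0, 51.8 and 74.9 CPM, log2 fold change -2.73, SE 0.39, adjusted p = 0.00045), Klf4 (26.8, 11.1 and 47.4 against 172, 111 and 97.1 CPM, log2 fold change -2.25, SE 0.44, adjusted p = 0.0028) and Klf5. The last was lost without ERI-R 2 (adjusted p = 0.059).

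**Figure D2:**
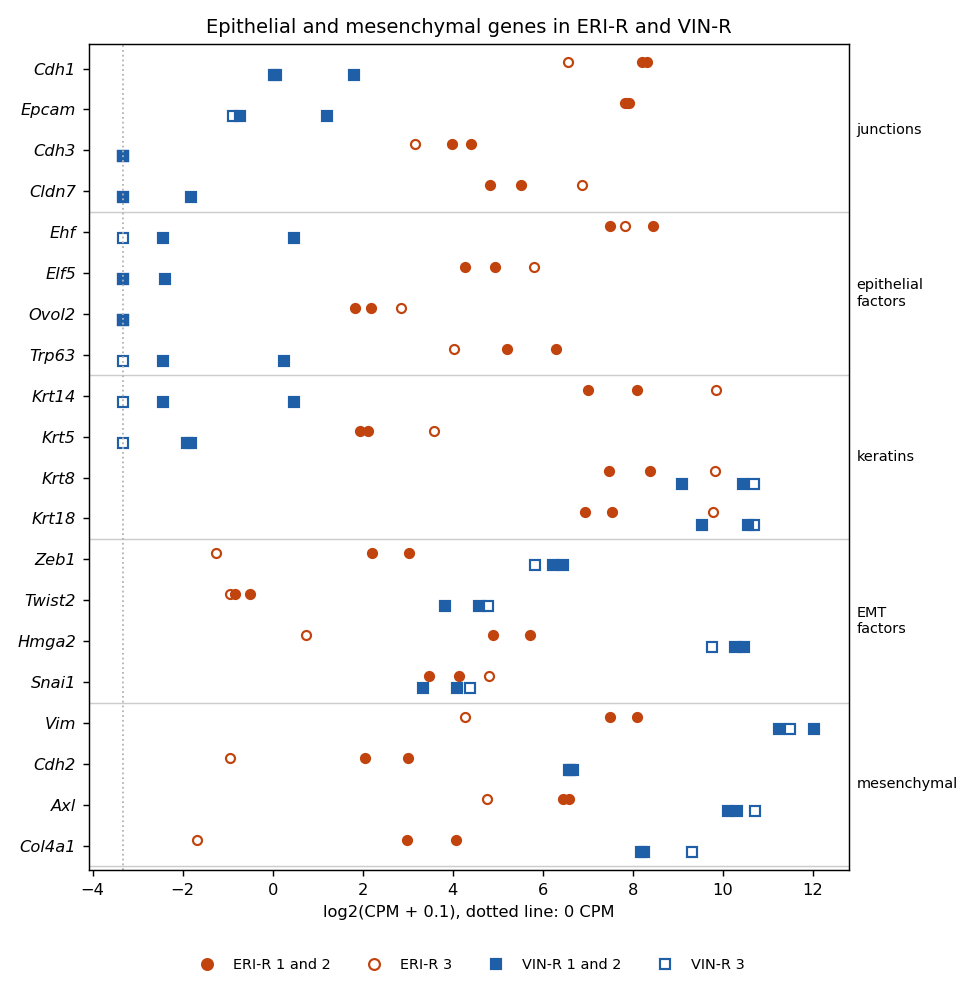
Levels of 20 epithelial and mesenchymal genes in each library, as log2(CPM + 0.1). Orange circles are ERI-R and blue squares VIN-R, with open symbols for the libraries numbered 3, and symbols at the same value lie on top of each other; Cdh1 stands at 94.4 CPM or more in ERI-R and at 3.38 CPM or less in VIN-R, whereas Vim stands at 276 CPM or less in ERI-R and at 2431 CPM or more in VIN-R.

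Zeb and Snail proteins bind the letters CACCTG, so the starts of the epithelial genes that were higher in ERI-R were searched for this E-box, on both strands, in the 250 bases before the RefSeq start of each gene (build GRCm38.p6). Promoters of 17 of the 29 genes called higher were matched, and 10 of them held the motif (58.8%). It was in 4 of the 6 matched promoters of the called epithelial transcription factors (66.7%), in 0 of 12 for the mesenchymal genes lower in ERI-R, and in 14.7% of the 10310 promoters of tested genes. Among all genes called higher, 20.6% of 1483 promoters held it, and among all genes called lower 14.8% of 1687. The pattern AACCNGGTT, with any base at N, was tried for grainyhead factors and found in 0 of the 17 and in 0.301% of all. The same letters without the middle base were not searched, so this count cannot show whether grainyhead sites were absent. A match is a description of these letters, not of binding. The lists hold genes chosen as epithelial, and their members that were not called were not counted for comparison. The shares may therefore belong to the lists and not to the calls, and any part of the motif in the differences was not tested. The genes shown were picked after the motif was counted. The promoters of 4 of these genes are shown so that the matches can be read. They belong to Epcam (chr17:87635729-87635978, plus strand), Ap1m2 (chr9:21312334-21312583, minus strand), which sorts proteins to the basolateral side, Lsr (chr7:30973470-30973719, minus strand), which builds tricellular junctions, and Rab25 (chr3:88548280-88548529, minus strand), a trafficking protein of epithelia. Each runs 5′ to 3′ on the strand of its gene and ends at the base before the start, and capitals mark CACCTG or its reverse complement CAGGTG.
Epcam: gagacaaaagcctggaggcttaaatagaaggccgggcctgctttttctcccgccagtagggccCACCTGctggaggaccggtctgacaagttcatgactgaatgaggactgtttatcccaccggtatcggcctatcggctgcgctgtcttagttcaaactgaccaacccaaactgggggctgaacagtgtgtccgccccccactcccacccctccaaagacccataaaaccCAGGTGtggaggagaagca
Ap1m2: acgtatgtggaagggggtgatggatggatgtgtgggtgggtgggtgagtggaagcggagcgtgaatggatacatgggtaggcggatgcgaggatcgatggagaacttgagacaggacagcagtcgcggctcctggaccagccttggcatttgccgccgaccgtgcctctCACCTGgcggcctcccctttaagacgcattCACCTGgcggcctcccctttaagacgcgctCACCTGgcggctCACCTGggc
Lsr: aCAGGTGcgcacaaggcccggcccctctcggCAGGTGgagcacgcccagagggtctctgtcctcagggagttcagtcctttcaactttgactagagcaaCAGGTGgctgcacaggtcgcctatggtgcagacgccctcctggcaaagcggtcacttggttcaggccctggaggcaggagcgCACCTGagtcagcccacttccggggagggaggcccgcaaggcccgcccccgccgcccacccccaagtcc
Rab25: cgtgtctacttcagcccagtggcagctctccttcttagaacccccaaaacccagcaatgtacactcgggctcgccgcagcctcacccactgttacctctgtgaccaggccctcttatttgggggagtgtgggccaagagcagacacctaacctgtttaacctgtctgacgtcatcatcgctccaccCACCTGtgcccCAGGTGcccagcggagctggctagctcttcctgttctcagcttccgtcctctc
The Epcam promoter holds 2 matches, that of Ap1m2 4, of Lsr 4 and of Rab25 2. In expression, Ap1m2 stood at 40.3, 64.7 and 74.8 CPM in ERI-R against 0.0837, 0.457 and 0 CPM in VIN-R (log2 fold change 8.49, SE 0.95, adjusted p = 0.00012), Lsr at 57.8, 51.5 and 231 against 0.0837, 0.640 and 0.443 CPM (log2 fold change 7.99, SE 0.94, adjusted p = 0.00015) and Rab25 at 24.5, 36.3 and 125 against 0, 0.274 and 0.148 CPM (log2 fold change 8.56, SE 0.96, adjusted p = 0.00012).

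Keratins of basal and stratified epithelium were mostly higher in ERI-R, and simple-epithelial keratins were mixed. Of 11 tested keratins of basal and stratified epithelium, 9 were higher in ERI-R and 0 lower (median log2 fold change 5.61). Krt14 stood at 129, 274 and 924 CPM in ERI-R 1, 2 and 3 and at 0.0837, 1.28 and 0 CPM in VIN-R (log2 fold change 10.07, SE 1.53, adjusted p = 0.00064). ERI-R 3 was highest for Krt14, for its partner Krt5 (4.27, 3.74 and 11.9 against 0.167, 0.183 and 0 CPM, log2 fold change 5.61, SE 0.87, adjusted p = 0.00074), and for Krt17 (14.3, 11.2 and 76.0 against 0.0837, 0 and 0.369 CPM), a keratin of stressed and basal epithelium. Krt15 stood at 25.1, 25.3 and 51.7 against 0.167, 0.183 and 0.295 CPM. Of 5 simple-epithelial keratins tested, 1 was higher in ERI-R and 2 were lower (60% called, beside 29.7% over all genes tested). Krt18 was present in both lines, at 123, 187 and 879 CPM in ERI-R and 1518, 742 and 1650.3 CPM in VIN-R. It was called lower in ERI-R (log2 fold change -2.15, SE 0.47, adjusted p = 0.0057), although ERI-R 3 overlapped VIN-R and the call was lost when the macrophage term was left out of the fit (adjusted p = 0.14). Its partner Krt8 showed 177, 336 and 918 against 1395, 544 and 1653 CPM (log2 fold change -1.56, SE 0.45, adjusted p = 0.024), with ERI-R 3 again above VIN-R 2. That call was lost without ERI-R 1 (adjusted p = 0.074), ERI-R 2 (0.054) or VIN-R 1 (0.079), and with the 6 libraries alone (0.098). Krt19 was higher in ERI-R (19.2, 23.6 and 110.4 against 4.27, 0.914 and 3.32 CPM, log2 fold change 3.84, SE 0.71, adjusted p = 0.0022). As markers of the labelled breast cancer cells, Krt8 and Krt18 thus stood at 544 CPM or more in every VIN-R library, while Cdh1, Epcam, Krt5 and Krt14 stood at 3.38 CPM or less.

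Basement membrane attachment genes differed member by member. Of 9 tested genes of hemidesmosomes and laminin-332, 4 were higher in ERI-R and 3 lower (77.8% called, beside 29.7% over all genes tested). Col17a1, a hemidesmosome collagen, stood at 16.5, 12.8 and 9.78 against 0.251, 0.0914 and 0.295 CPM (log2 fold change 5.80, SE 0.57, adjusted p = 6.9e-05), and Lamb3, a laminin-332 chain, at 204, 124 and 226 against 3.10, 2.47 and 6.20 CPM (log2 fold change 5.598, SE 0.51, adjusted p = 4.7e-05). The linker proteins Dst (255, 206 and 64.2 against 483, 1111 and 958 CPM, log2 fold change -2.40, SE 0.53, adjusted p = 0.0059) and Plec (258, 263 and 390.4 against 595, 699 and 1126 CPM, log2 fold change -1.38, SE 0.21, adjusted p = 0.00062), which are also made outside epithelia, were lower in ERI-R.

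Mammary lineage genes were mixed. Among 20 tested luminal genes, 10 were higher in ERI-R and 5 lower (median log2 fold change 3.40, 75% called). Among 13 basal or myoepithelial genes 4 were higher and 4 lower (61.5% called, beside 29.7% over all genes tested). Wfdc18, a secreted protein of mammary epithelium, stood at 123, 276 and 1878 CPM in ERI-R and 0.251, 0.823 and 0 CPM in VIN-R (log2 fold change 11.38, SE 2.10, adjusted p = 0.0021). The transcriptional co-regulators Cited4 (20.4, 39.1 and 326 against 0, 0.0914 and 0.0738 CPM) and Cited1 (2.06, 1.98 and 17.5 CPM against no count, at least 74.4-fold) were also highest in ERI-R 3. Prlr, the prolactin receptor, was level across ERI-R at 181, 218 and 229 CPM and stood at 0.335, 1.10 and 0 CPM in VIN-R (log2 fold change 9.45, SE 1.39, adjusted p = 0.00053). Kit, a receptor of luminal progenitors, stood at 20.7, 18.1 and 3.68 against 0.418, 0.640 and 0 CPM (log2 fold change 5.57, SE 0.72, adjusted p = 0.00025). In the opposite direction, Areg, the EGF receptor ligand amphiregulin, had 29.2, 28.0 and 58.5 against 418, 269 and 256 CPM (log2 fold change -3.05, SE 0.36, adjusted p = 0.00014), and Aldh1a3, a retinal dehydrogenase, 0.610, 0.458 and 0.947 against 8.20, 2.38 and 2.81 CPM. Among basal genes, Lgr5, an R-spondin receptor of stem cells (7.54, 2.21 and 2.00 against 0.167, 0.183 and 0.0738 CPM), and the Notch ligand Jag2 (9.83, 12.9 and 12.7 against 1.00, 0.457 and 2.58 CPM) were higher in ERI-R. Cav1, of caveolae (36.4, 34.3 and 1.16 against 516, 335 and 259 CPM), the inhibitor Id4 (13.9, 11.9 and 12.4 against 112, 94.5 and 40.5 CPM) and the neurotrophin receptor Ngfr (2 counts in ERI-R against 1.09, 1.65 and 5.17 CPM) were lower.

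The labels' receptor status was read in both lines. Pgr, the progesterone receptor, stood at 8.61, 5.80 and 2.00 CPM in ERI-R 1, 2 and 3 and at 0, 0.731 and 0 CPM in VIN-R (log2 fold change 4.72, SE 1.10, adjusted p = 0.0080, and 8.79 without VIN-R 2, where alone it had counts in VIN-R). Esr1, the oestrogen receptor, was at 13.9, 9.23 and 5.05 CPM in ERI-R and 11.2, 14.3 and 13.1 CPM in VIN-R, with no call (95% interval of the log2 fold change -1.18 to 0.21). Erbb2 had 37.7, 29.6 and 52.8 against 26.0, 17.3 and 48.7 CPM (95% interval -0.09 to 1.011). Without the macrophage term Pgr was not called (adjusted p = 0.074). Transcript levels do not give the protein status that the labels describe. These 3 genes fall outside the rule for named genes and were read because the labels give the status.

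Factors of the epithelial-mesenchymal transition were mostly lower in ERI-R. Of 24 tested, 14 were lower and 4 higher, namely Tbx2, Foxq1, Msx1 and Foxc1 (median log2 fold change -1.07). Zeb1, a repressor of Cdh1, stood at 8.08, 4.50 and 0.316 CPM in ERI-R 1, 2 and 3 and at 74.9, 88.1 and 56.7 CPM in VIN-R (log2 fold change -4.28, SE 0.62, adjusted p = 0.00048). Twist2 stood at 0.457, 0.610 and 0.421 against 23.8, 14.2 and 27.4 CPM (log2 fold change -5.36, SE 0.40, adjusted p = 3.2e-05), and its relative Twist1 at 24.5, 20.5 and 12.8 against 66.3, 43.5 and 34.5 CPM (-1.32). Hmga2, a chromatin protein of embryonic and mesenchymal cells, was at 52.9, 29.9 and 1.58 CPM in ERI-R and at 1418, 1242 and 868 CPM in VIN-R (log2 fold change -5.70, SE 0.81, adjusted p = 0.00045). Tbx18 had 0.152, 0.534 and 0.421 against 12.9, 12.9 and 8.71 CPM. Snai2 was lower (5.56, 3.66 and 1.05 against 18.4, 16.4 and 3.91 CPM, log2 fold change -1.90, SE 0.36, adjusted p = 0.0026), but ERI-R 1 stood above VIN-R 3 and the call was lost without the macrophage term (adjusted p = 0.16). Zeb2, which macrophages also make, showed 94.8, 63.7 and 1.68 against 141, 423 and 41.3 CPM (log2 fold change -2.38, SE 0.70, adjusted p = 0.026). The call did not hold without ERI-R 2 (adjusted p = 0.072), ERI-R 3 (0.066), VIN-R 2 (0.11) or VIN-R 3 (0.066), and without the macrophage term (0.38). Snai1 was not called, at 17.7, 10.99 and 28.0 against 16.9, 9.96 and 20.9 CPM (log2 fold change 0.20, 95% interval -0.40 to 0.80), with overlapping libraries.

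Mesenchymal structural genes were also mostly lower in ERI-R. Of 34 tested, 18 were lower in ERI-R and 4 higher (median log2 fold change -1.92). Vim, the intermediate filament vimentin, stood at 276, 180.3 and 19.1 CPM in ERI-R and 4195, 2431 and 2895 CPM in VIN-R (log2 fold change -4.46, SE 0.77, adjusted p = 0.0014). Leukocytes also make Vim, and its level was lowest in ERI-R 3, where most of their markers were at 0. VIN-R 3, with 18 of the 28 at 0, held 2895 CPM, and the part of leukocytes in the Vim levels was not tested. Cdh2, N-cadherin, stood at 7.92, 4.04 and 0.421 against 95.6, 102 and 97.2 CPM (log2 fold change -4.71, SE 0.63, adjusted p = 0.00031). Fn1, fibronectin, was at 1478, 1321 and 673 against 5104, 6662 and 8517 CPM (log2 fold change -2.52, SE 0.38, adjusted p = 0.00058) and was singled out after its values were seen. The matrix enzymes Loxl1 (0.914, 0.839 and 0 against 25.8, 11.9 and 39.3 CPM) and Mmp3 (3.12, 1.75 and 0.316 against 57.4, 30.8 and 75.7 CPM) and Timp1, an inhibitor of metalloproteinases such as Mmp3 (7.01, 4.35 and 0.210 against 167, 82.2 and 199 CPM), had log2 fold changes of -5.13, -4.86 and -5.12. Among the 4 exceptions were matrix genes. Timp3, a matrix-bound inhibitor of metalloproteinases, stood at 559.8, 1236 and 935 CPM against 39.2, 38.6 and 42.6 CPM (log2 fold change 4.50, SE 0.41, adjusted p = 5e-05). Bgn, a proteoglycan, stood at 175, 67.6 and 149 against 8.03, 24.4 and 14.5 CPM, and Postn, periostin, at 99.2, 62.1 and 22.9 against 1.00, 10.1 and 0.148 CPM (log2 fold change 4.82, SE 1.00, adjusted p = 0.0042), a call lost without the macrophage term (adjusted p = 0.13).

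Collagens went both ways. Among 24 tested collagens, 10 were lower in ERI-R and 3 higher (54.2% called, beside 29.7% over all genes tested). The basement membrane pair Col4a1 (16.7, 7.86 and 0.210 against 306, 291 and 635 CPM, log2 fold change -5.48, SE 1.02, adjusted p = 0.0022) and Col4a2 (9.83, 4.96 and 0.210 against 254, 206 and 544 CPM, log2 fold change -5.77, SE 0.96, adjusted p = 0.0011), which share a promoter region, were lowest in ERI-R 3. Col11a1 went the other way (91.4, 105 and 39.3 against 0.502, 1.28 and 1.48 CPM, log2 fold change 6.004, SE 0.56, adjusted p = 5.5e-05). Of 29 targets of YAP and of actin-regulated SRF, 14 were lower in ERI-R and 2 higher. Without ERI-R 3 the counts were 12 and 4. Axl, a receptor kinase linked to mesenchymal states and drug tolerance, stood at 95.3, 88.0 and 27.2 against 1271, 1115 and 1682 CPM (log2 fold change -4.28, SE 0.48, adjusted p = 0.00012). Nt5e, the ectoenzyme CD73 (40.2, 22.0 and 6.84 against 288, 225 and 133 CPM, -3.36), and Fhl1 (2.36, 0.839 and 1.16 against 13.9, 13.3 and 18.8 CPM, -3.37) were also lower.

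Markers of other stromal cells were checked beside these genes. Of 12 fibroblast markers, 7 were tested and 2 were lower in ERI-R, one of them Pdgfrb (28.6% called, beside 29.7% over all genes tested). Their summed level was 115 to 125 CPM in ERI-R and 182 to 278 CPM in VIN-R, and 3 to 5 of the 12 were at 0 in each library. Of 13 endothelial and pericyte markers, 6 were tested and Rgs5 was lower (16.7% called). Their sum was 8.84 to 13.6 CPM in ERI-R and 17.4 to 36.0 CPM in VIN-R. The part of such cells in the mesenchymal results was not tested.

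The genes that follow are among the largest differences. Igfbp5, which binds insulin-like growth factors, stood at 5389, 4492 and 6950.4 CPM in ERI-R and at 3.35, 38.2 and 0.148 CPM in VIN-R (log2 fold change 11.71, SE 2.46, adjusted p = 0.0044). Its relative Igfbp2 behaved alike (90.8, 87.4 and 537 against 0, 0.640 and 0 CPM, log2 fold change 10.25, SE 1.78, adjusted p = 0.0015), whereas Igfbp3 went the opposite way (1.60, 0.229 and 0 against 116, 37.3 and 77.7 CPM, log2 fold change -6.88, SE 0.93, adjusted p = 0.00032). With no count in any VIN-R library, Tmem54 (11.5, 13.7 and 71.0 CPM), Cblc, an epithelial ubiquitin ligase (7.62, 10.5 and 60.4 CPM), Mia (4.42, 5.95 and 62.5 CPM), Ntng1, a netrin family protein (16.4, 22.5 and 21.8 CPM), Map3k21 (13.1, 21.1 and 19.5 CPM) and Lipk (16.2, 16.7 and 8.73 CPM) were at least 342, 276, 248, 244, 215 and 175-fold higher in ERI-R. Tmem54, Cblc and Mia were highest in ERI-R 3.

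Among genes lower in ERI-R, the hormone Cck, cholecystokinin, stood at 0.229, 0.0763 and 0 CPM against 54.5, 24.7 and 85.8 CPM (log2 fold change -8.75, SE 0.83, adjusted p = 5.8e-05). Msln, mesothelin, a surface protein used as a tumour target, had 5.71, 2.06 and 0.526 against 251, 124 and 662 CPM (log2 fold change -6.43, SE 0.91, adjusted p = 0.00043). Nrn1, neuritin, was even across VIN-R (1.07, 0.305 and 0 against 52.6, 48.6 and 51.1 CPM, log2 fold change -6.65, SE 0.66, adjusted p = 7e-05), and the vesicle protein Rab3b stood at 0.305, 0.0763 and 0.421 against 22.9, 13.6 and 30.9 CPM (log2 fold change -6.44, SE 0.50, adjusted p = 3.3e-05). The ERK phosphatase Dusp9 (0.381, 0.153 and 0 against 18.1, 12.5 and 43.9 CPM), the protease Tmprss11e (2.36, 0.992 and 0 against 119.7, 146 and 64.4 CPM) and the kinase Txk (0.152, 0.229 and 0 against 13.3, 13.0 and 18.9 CPM) had log2 fold changes of -6.68, -6.65 and -6.60. Tnxb, tenascin-X, had 2 counts over ERI-R (5.86, 4.84 and 20.0 CPM in VIN-R, 193-fold with a 95% interval of 53.1 to 1601), and Crisp1 had 3 (15.5, 7.13 and 6.28 CPM in VIN-R, 114-fold with an interval of 38.6 to 554).

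Tubulin is the target of both drugs. Of 8 beta-tubulin genes, 6 were tested, 1 was higher in ERI-R and 2 were lower (50% called, beside 29.7% over all genes tested). Per transcript length (TPM), Tubb5 supplied 48.1%, 37.1% and 35.2% of all beta-tubulin in ERI-R 1, 2 and 3 and 57.7%, 56.5% and 48.3% in VIN-R, the largest single share in 5 of the 6 libraries. Its CPM did not differ by the test (609, 790.4 and 1814 against 1290.5, 665 and 1566 CPM, log2 fold change -0.24, 95% interval -0.99 to 0.52). Between the libraries numbered 3 the order depended on the unit, since Tubb5 stood at 589 TPM in ERI-R 3 and 980 TPM in VIN-R 3. Tubb4b gave 26.0%, 34.0% and 37.6% in ERI-R and 21.6%, 20.5% and 26.2% in VIN-R, without a call on CPM (0.78, 95% interval -0.14 to 1.69), and Tubb6 between 14.2% and 19.3% in all 6 (0.22, 95% interval -0.60 to 1.05). The Tubb5 shares of the lines did not overlap, though narrowly, with 48.1% in ERI-R 1 and 48.3% in VIN-R 3. On CPM, the calls fell on Tubb2b, Tubb3 and Tubb2a. Tubb2b stood at 1.68, 1.91 and 1.58 CPM in ERI-R and 46.9, 20.9 and 67.7 CPM in VIN-R (log2 fold change -4.59, SE 0.44, adjusted p = 6e-05, and -4.92 to -4.15 with any 1 library left out). As a share this was at most 0.159% of beta-tubulin in ERI-R and 2.15% to 2.63% in VIN-R. Tubb3, the neuronal isotype often studied in resistance to these drugs, had 3 counts over ERI-R and 3.85, 1.83 and 6.20 CPM in VIN-R, a ratio of 49.0 (95% interval 16.5 to 240). Tubb2a, the near copy of Tubb2b on chromosome 13, went the other way at 61.4, 153 and 383 against 40.8, 43.0 and 61.1 CPM (log2 fold change 1.84, SE 0.44, adjusted p = 0.0088). Its call was lost without VIN-R 3 (adjusted p = 0.055) and with the 8 libraries that held macrophage RNA (0.054), and since the 2 sequences are alike, reads shared between them were split by the authors' estimate. In Control, Tubb2b stood at 95.03, 97.5 and 59.3 CPM and Tubb3 at 7.73, 8.89 and 4.81 CPM, in the range of VIN-R or above it. Of 12 alpha-, gamma- and related tubulins, 9 were tested and 22.2% of these called, beside 29.7% over all genes tested. Tuba8 (1.52, 4.96 and 6.73 against 0.669, 0.548 and 1.77 CPM, log2 fold change 2.19, SE 0.47, adjusted p = 0.0052, with ERI-R 1 below VIN-R 3) and the centriolar Tubd1 were higher in ERI-R. Tubd1 was lost without VIN-R 2 (adjusted p = 0.057) and with the 6 libraries alone (0.10).

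**Figure D3:**
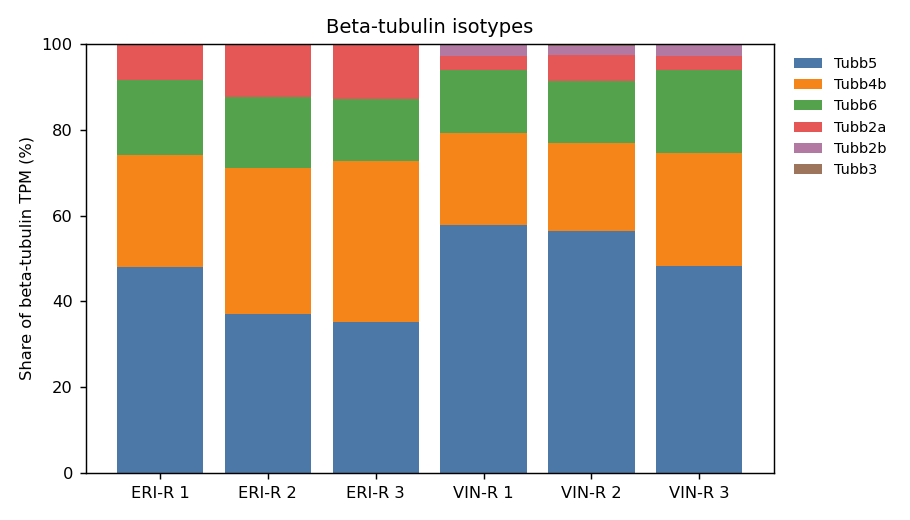
Share of each beta-tubulin isotype in the summed TPM of the 8 beta-tubulin genes, in %, for each ERI-R and VIN-R library. Tubb2b takes 2.15% to 2.63% in VIN-R and at most 0.159% in ERI-R, and Tubb2a 8.24% to 12.8% in ERI-R and 3.13% to 6.19% in VIN-R.

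Proteins that bind the microtubule lattice or its ends differed in both directions. Of 29 tested, 10 were higher in ERI-R and 6 lower (55.2% called, beside 29.7% over all genes tested). Map7, which recruits kinesin-1, was even within each line, at 42.2, 38.7 and 38.1 against 2.34, 2.19 and 2.07 CPM (log2 fold change 4.17, SE 0.26, adjusted p = 2.2e-05). Camsap3, which caps the minus ends of microtubules in epithelial cells, stood at 18.1, 16.3 and 48.2 against 0, 0.457 and 0.591 CPM (log2 fold change 6.21, SE 0.73, adjusted p = 0.00015). Clip4, a plus-end family member, had 6.78, 9.46 and 10.9 CPM in ERI-R and 2 counts over VIN-R, a ratio of 162 (95% interval 44.4 to 1340.3). Map1b, a stabilising protein of neurons, was lower in ERI-R at 40.2, 19.1 and 14.6 against 421, 509 and 321 CPM (log2 fold change -4.11, SE 0.35, adjusted p = 4.1e-05), as was Map6, a cold-stable lattice protein (1.14, 0.839 and 0.210 against 10.8, 9.32 and 20.4 CPM, log2 fold change -3.99, SE 0.51, adjusted p = 0.00023). Map4, the common lattice protein outside neurons, was called lower (177, 142 and 91.9 against 212, 267 and 333 CPM, log2 fold change -0.98, SE 0.28, adjusted p = 0.022), but the call was lost without ERI-R 2 (adjusted p = 0.058), ERI-R 3 (0.078), VIN-R 2 (0.056) or VIN-R 3 (0.10), and its log2 fold change without ERI-R 3 was -0.51. Mapre1, the plus-end protein EB1 (log2 fold change -0.05, 95% interval -0.53 to 0.43), Stmn1, which sequesters tubulin (0.01, 95% interval -0.82 to 0.84), and the depolymerising kinesin Kif2c (-0.25, 95% interval -0.80 to 0.30) were not called, and their signs changed with the settings tried.

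**Figure D4:**
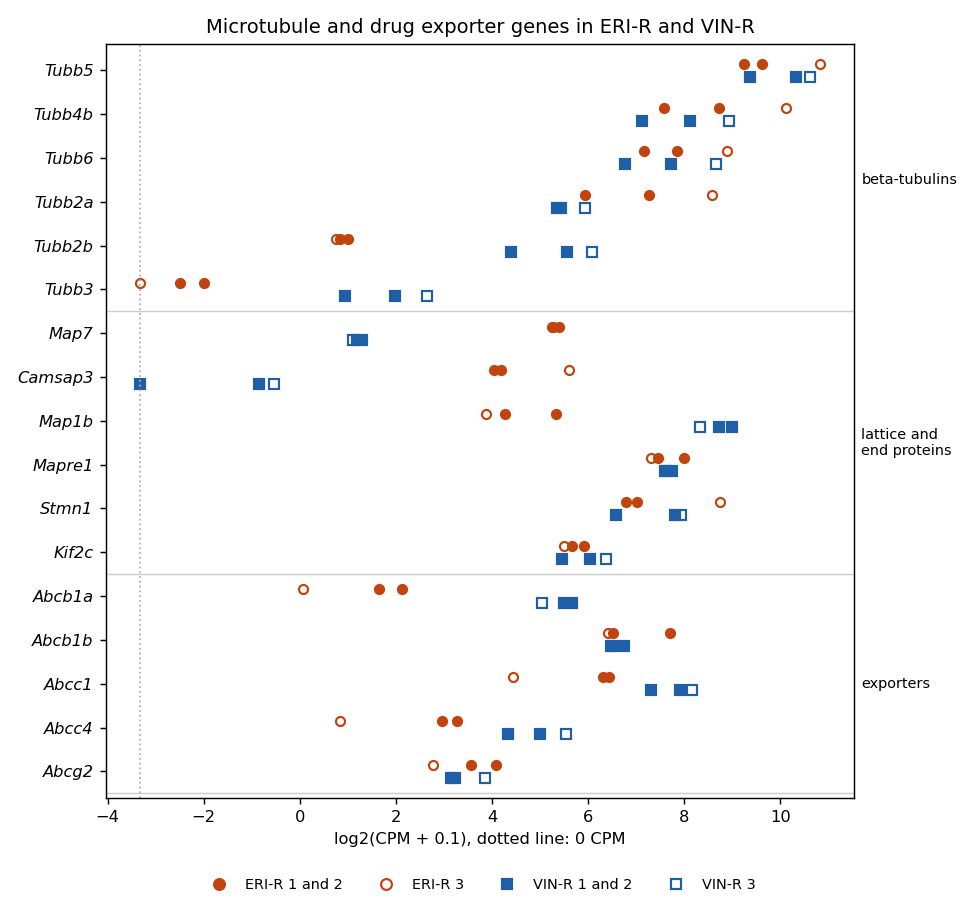
Levels of 17 microtubule and exporter genes in each library, as log2(CPM + 0.1), with ERI-R as orange circles, VIN-R as blue squares and open symbols for the libraries numbered 3. Map7 lies between 38.1 and 42.2 CPM in ERI-R and between 2.07 and 2.34 CPM in VIN-R. The libraries of the lines overlap for several genes, among them Tubb5, Mapre1, Stmn1, Kif2c, Abcb1b and Abcg2. Tubb4b and Tubb6 were not called.

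Of 24 tested tubulin-modifying enzymes, 1 was higher in ERI-R and 5 lower, 25.0% called beside 29.7% over all genes tested. Agbl5, which removes glutamates from tubulin tails, stood at 72.4, 56.1 and 73.6 against 8.03, 10.1 and 9.67 CPM (log2 fold change 2.86, SE 0.22, adjusted p = 3.2e-05). The detyrosinating enzyme Vash2 (3.28, 2.52 and 1.58 against 14.6, 10.3 and 20.7 CPM, log2 fold change -2.58, SE 0.34, adjusted p = 0.00027), the alpha-tubulin acetyltransferase Atat1 (2.13, 1.53 and 2.63 against 13.8, 7.59 and 10.4 CPM, log2 fold change -2.36, SE 0.32, adjusted p = 0.0003) and the glutamylase Ttll7 (15.5, 10.9 and 5.16 against 34.1, 49.7 and 21.6 CPM, log2 fold change -1.79, SE 0.35, adjusted p = 0.0028) were lower in ERI-R. Of 13 destabilisers and severing enzymes, 1 was higher and 2 lower (23.1% called), with 3 higher and 2 lower without ERI-R 3. The severing enzyme Fign was close to silent in ERI-R (0.152, 0.0763 and 0.105 against 1.84, 1.83 and 0.886 CPM, log2 fold change -3.63, SE 0.51, adjusted p = 0.00039).

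Drug export differed at one of the P-glycoprotein genes. Abcb1a stood at 3.05, 4.27 and 0.947 CPM in ERI-R 1, 2 and 3 and at 50.7, 45.3 and 33.0 CPM in VIN-R 1, 2 and 3 (log2 fold change -4.03, SE 0.33, adjusted p = 3.6e-05, and -4.36 to -3.55 with any 1 library left out). Control held 16.4, 22.7 and 23.4 CPM, between the lines. Abcb1b, beside it on chromosome 5, showed no call: 90.8, 209 and 84.8 CPM in ERI-R against 88.7, 107 and 90.2 CPM in VIN-R, and ERI-R 2 was higher than all others (log2 fold change 0.39, 95% interval -0.26 to 1.04). Control held 60.2, 69.5 and 71.3 CPM. The 2 genes code for closely similar proteins, so some reads may have been divided between them by the estimate. Of 16 tested ABC exporters, 3 were higher in ERI-R and 4 lower (43.75% called, beside 29.7% over all genes tested). Abcc1, the exporter MRP1 (86.1, 79.3 and 21.7 against 159, 242 and 286 CPM, log2 fold change -1.91, SE 0.45, adjusted p = 0.0086), and Abcc4, MRP4 (9.60, 7.63 and 1.68 against 20.0, 31.6 and 46.5 CPM, log2 fold change -2.39, SE 0.56, adjusted p = 0.0081), were lowest in ERI-R 3. Without ERI-R 3, Abcc1 had a log2 fold change of -1.21 (adjusted p = 0.0026), and with the 6 libraries alone neither was called (adjusted p = 0.051 for each). Abcg2, the breast cancer resistance protein, was not called (0.14, 95% interval -0.67 to 0.96). Abcb9, a lysosomal peptide transporter, was higher in ERI-R (4.34, 2.98 and 15.1 against 0.0837, 0.823 and 0.738 CPM, log2 fold change 3.58, SE 0.68, adjusted p = 0.0026). The genes around Abcb1a did not move as a block: of 16 tested neighbours, a list that holds neither exporter, 7 were higher in ERI-R and 4 lower (68.75% called). Steap4 stood at 132, 36.5 and 10.5 against 0, 0.914 and 0 CPM (log2 fold change 7.82, and 12.20 without VIN-R 2) and Sema3d at 12.4, 6.64 and 1.26 against 0.418, 0.183 and 0.221 CPM, whereas Sema3a (2.90, 3.81 and 0.526 against 39.7, 48.2 and 32.9 CPM), Steap1 (12.3, 11.1 and 7.996 against 56.2, 46.9 and 49.8 CPM) and Steap2 (77.1, 41.1 and 18.9 against 226, 300.5 and 156 CPM) were lower in ERI-R.

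Detoxifying enzymes went both ways, with 9 of 42 higher in ERI-R and 14 lower (54.8% called, beside 29.7% over all genes tested). Without VIN-R 3 these counts were 3 and 12. Nqo1, a quinone reductase driven by NRF2 and the aryl hydrocarbon receptor, stood at 25.1, 15.9 and 34.5 against 0.335, 1.005 and 0 CPM (log2 fold change 5.97, SE 0.77, adjusted p = 0.00026), and Cyp1b1 at 57.3, 51.3 and 18.0 against 0.502, 3.02 and 0.369 CPM (log2 fold change 5.10, SE 0.69, adjusted p = 0.00031). Ugdh, which makes the sugar acid for glucuronidation, had 84.8, 61.8 and 13.4 against 328, 274 and 239 CPM (log2 fold change -2.55, SE 0.44, adjusted p = 0.0014). Cyp3a13, of the family that metabolises vinca alkaloids, was low in both, at 0.152, 0.0763 and 0.105 against 2.84, 1.65 and 1.85 CPM (log2 fold change -4.19, SE 0.66, adjusted p = 0.0008).

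Signalling genes differed at ligands, receptors and inhibitors alike. In the TGF-beta and BMP list, 11 of 41 were higher in ERI-R and 13 lower (58.5% called, beside 29.7% over all genes tested). Fst, follistatin, which blocks activins, stood at 49.9, 72.3 and 90.9 against 1.00, 1.19 and 1.33 CPM (log2 fold change 5.90, SE 0.37, adjusted p = 2.2e-05) together with an activin chain, Inhbb (408, 205 and 118 against 6.78, 7.68 and 6.79 CPM, log2 fold change 5.00, SE 0.40, adjusted p = 3.5e-05). The inhibin chain Inha (1.90, 1.37 and 7.15 CPM against no count) was at least 37.7-fold higher. The BMP antagonist Grem1 (5.26, 3.43 and 0 against 87.0, 68.6 and 37.1 CPM, log2 fold change -4.80, SE 0.74, adjusted p = 0.00073) and the ligand Bmp4 (0.152, 0.687 and 1.16 against 4.52, 4.57 and 8.12 CPM, log2 fold change -3.19, SE 0.56, adjusted p = 0.0015) were lower. In the Wnt list, 11 of 34 were higher and 9 lower (58.8% called). Nkd2, an inhibitor of the canonical pathway, stood at 202, 182 and 462 against 0.167, 0.914 and 0.148 CPM (log2 fold change 9.65, SE 1.09, adjusted p = 0.00012) and Rnf43, which removes Frizzled receptors, at 10.97, 7.09 and 11.99 against 0, 0.183 and 0 CPM (2 counts over VIN-R). The ligands split, since Wnt4 (5.33, 7.55 and 33.0 against 0.0837, 0.0914 and 0.0738 CPM) was higher and Wnt5a (3.81, 1.14 and 0 against 122, 93.1 and 89.2 CPM, log2 fold change -6.05, SE 0.76, adjusted p = 0.00021) lower. The Wnt5a receptor Ror2 (3 counts over ERI-R against 4.18, 2.47 and 8.12 CPM) and the R-spondin receptor Lgr6 (6.10, 3.05 and 0.421 against 168, 116 and 137 CPM, log2 fold change -5.49, SE 0.65, adjusted p = 0.00015) were lower as well.

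Receptor kinases and Notch genes also differed in both directions. Among 37 receptors and ligands of growth factors, 8 were higher in ERI-R and 12 lower (54.1% called, beside 29.7% over all genes tested). Fgfr2, the epithelial FGF receptor, had 37.7, 16.9 and 13.7 CPM in ERI-R and 2 counts over VIN-R, and Ntrk2, a neurotrophin receptor, stood at 119.6, 63.3 and 59.2 against 0, 1.10 and 0 CPM (log2 fold change 8.26, SE 1.22, adjusted p = 0.00054, and 12.93 without VIN-R 2, the VIN-R library with counts). The ligand Fgf2 (3.58, 0.839 and 0.105 against 39.7, 43.5 and 24.3 CPM, log2 fold change -4.72, SE 0.60, adjusted p = 0.00022) and the mesenchymal receptor Pdgfrb (1.22, 0.992 and 0.421 against 18.2, 20.0 and 30.6 CPM, log2 fold change -4.52, SE 0.52, adjusted p = 0.00013) were lower. Of 16 Notch genes, 6 were higher and 3 lower (56.25% called). Hey1, a direct Notch target, stood at 89.3, 45.7 and 53.8 against 1.09, 1.37 and 0.295 CPM (log2 fold change 6.33, SE 0.66, adjusted p = 8.9e-05) and the receptor Notch3 at 70.6, 72.9 and 38.7 against 1.84, 2.65 and 3.62 CPM (log2 fold change 4.43, SE 0.44, adjusted p = 7e-05). The ligand Jag1 (25.0, 18.2 and 2.52 against 118, 97.2 and 54.5 CPM, log2 fold change -2.86, SE 0.46, adjusted p = 0.00096) and Rbpj, the DNA-binding partner of Notch (226, 165 and 40.1 against 511, 839 and 450.3 CPM, log2 fold change -2.24, SE 0.43, adjusted p = 0.0025), were lower.

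Cdkn2a was read in every ERI-R library and in no VIN-R library. The gene encodes p16 and p19Arf, brakes on the cell cycle (GRCm38 chromosome 4, 89274471 to 89294653, minus strand), and stood at 10.4, 10.5 and 45.7 CPM in ERI-R 1, 2 and 3. No read of it was counted in any VIN-R library, so it was at least 241-fold higher in ERI-R. Control had 0, 4 and 0 counts and PAC-R 2, 2 and 0. Its neighbour Cdkn2b (chromosome 4, 89306299 to 89311039, minus strand), which encodes p15, stood at 11.7, 7.25 and 20.0 against 0.167, 1.19 and 0 CPM (log2 fold change 5.40, SE 1.28, adjusted p = 0.0089). Mtap, an enzyme of methionine salvage (chromosome 4, 89137122 to 89181081, plus strand), had 729, 967 and 337 counts in ERI-R, 11, 87 and 0 in VIN-R and 261, 177 and 90 in Control (log2 fold change 4.56, SE 1.23, adjusted p = 0.017, and 6.89 without VIN-R 2). Without the macrophage term Mtap was not called (adjusted p = 0.079). Wincr1, a long noncoding RNA on the other side of Mtap (89050308 to 89084614, plus strand), was reversed, at 1.22, 0.534 and 0 CPM in ERI-R and 59.7, 30.3 and 25.6 CPM in VIN-R (log2 fold change -6.02, SE 0.60, adjusted p = 7.0e-05). Mtap and Wincr1 were added after the values of Cdkn2a were seen. In VIN-R, Mtap and Cdkn2b had counts only in the libraries with macrophage RNA, and the part of that RNA was not tested.

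Of the 43 cell cycle genes tested, which include Cdkn2a and Cdkn2b, 8 were higher in ERI-R and 2 lower. The share called in either direction was 23.3% beside 29.7% over all genes tested, of which 13.9% were higher. Without VIN-R 3 the counts were 3 and 1. Mad1l1, of the spindle checkpoint that microtubule drugs engage, stood at 79.5, 96.1 and 245 against 31.7, 21.1 and 48.3 CPM (log2 fold change 1.95, SE 0.29, adjusted p = 0.00062). Ccnd2, cyclin D2, was lower at 55.9, 54.6 and 34.4 against 264, 327 and 207 CPM (log2 fold change -2.48, SE 0.20, adjusted p = 3.6e-05). Of 29 p53 targets, 8 were higher and 2 lower (34.5% called, beside 29.7% over all genes tested), but these counts were 4 and 5 without ERI-R 2, 5 and 1 without ERI-R 3, 5 and 2 without VIN-R 1, 3 and 1 without VIN-R 2, and 2 and 1 without VIN-R 3. Perp, a desmosomal protein of stratified epithelium, was called whichever library was left out (172, 411 and 215 against 98.0, 69.1 and 72.9 CPM, log2 fold change 1.73, SE 0.33, adjusted p = 0.0027), as was Plk3, which was lower (10.97, 7.48 and 5.79 against 43.0, 34.5 and 47.8 CPM, log2 fold change -2.35, SE 0.28, adjusted p = 0.00017). Of 29 apoptosis genes, 3 were higher and 7 lower (34.5% called), and 1 and 5 without ERI-R 2, 3 and 4 without ERI-R 3, 0 and 5 without VIN-R 2, and 0 and 4 without VIN-R 3.

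In the chromatin and stress lists the counts moved with single libraries. Of 26 SWI/SNF subunits, 6 were higher and 2 lower, 30.8% called in either direction beside 29.7% over all genes tested, with 6 and 0 without ERI-R 2, 7 and 0 without ERI-R 3, 4 and 0 without VIN-R 2, and 3 and 0 without VIN-R 3. Smarca2, the ATPase BRM, stood at 99.0, 82.0 and 233 against 26.8, 26.3 and 22.8 CPM (log2 fold change 2.37, SE 0.34, adjusted p = 0.00044). Of 41 enzymes of DNA and histone methylation, 3 were higher and 3 lower, 14.6% called beside the same 29.7%. These counts were 3 and 5 without ERI-R 1, 3 and 1 without ERI-R 2 or VIN-R 2, and 8 and 1 without ERI-R 3. Tet1, which oxidises methylcytosine (27.0, 16.3 and 3.79 against 0.586, 0.823 and 0.148 CPM, log2 fold change 4.81, SE 0.55, adjusted p = 0.00013), and the de novo methylase Dnmt3b (6.10, 8.77 and 4.73 against 1.00, 1.65 and 1.55 CPM, log2 fold change 2.203, SE 0.37, adjusted p = 0.0012) were higher. In the unfolded protein and integrated stress responses, 12 of 31 were lower in ERI-R and 1 higher (41.9% called in either direction beside 29.7% over all genes tested), with 6 to 7 lower without ERI-R 2, VIN-R 2 or VIN-R 3. Nupr1, a stress-induced chromatin protein, stood at 37.3, 14.3 and 51.4 against 232, 212 and 95.2 CPM (log2 fold change -2.34, SE 0.47, adjusted p = 0.0033), and Ern1, the sensor IRE1, at 29.3, 19.6 and 3.68 against 58.1, 109 and 37.7 CPM (log2 fold change -2.17, SE 0.45, adjusted p = 0.0039), a call lost without the macrophage term (adjusted p = 0.089). Of 35 hypoxia and glycolysis genes, 4 were higher and 5 lower (25.7% called), with 3 and 8 without ERI-R 1 and 3 and 3 without VIN-R 3. Of 32 genes of cholesterol and fatty acid synthesis, 3 were higher and 1 lower (12.5% called). Between 0 and 6 were higher when 1 library was left out, 0 without ERI-R 1 or VIN-R 2 and 6 without ERI-R 3.

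Of 34 cytokine genes and NF-kB targets, 9 were lower in ERI-R and 1 higher, 29.4% called beside 29.7% over all genes tested. Csf2, the growth factor GM-CSF, stood at 1.45, 1.37 and 0 CPM in ERI-R and 108, 56.5 and 45.3 CPM in VIN-R, and at 27.8, 34.1 and 28.9 CPM in Control (log2 fold change -6.20, SE 0.63, adjusted p = 8e-05). The chemokine Cxcl12 (7.70, 3.28 and 1.05 against 122, 89.4 and 187 CPM, log2 fold change -4.96, SE 0.63, adjusted p = 0.00022) and the alarmin Il33 (2.82, 3.05 and 1.68 against 94.5, 31.2 and 18.8 CPM, log2 fold change -4.16, SE 0.84, adjusted p = 0.0036) were lower too, whereas Ccl20 was higher (13.4, 2.44 and 1.47 against 0.251, 0.366 and 0 CPM, log2 fold change 4.79, SE 0.78, adjusted p = 0.00097). Without VIN-R 1, which had the fewest leukocyte transcripts of the VIN-R libraries that held them, 17 were lower. For these 4 genes, as for 99.6% of all called genes, the pair without macrophage RNA, the libraries numbered 3, showed the same order of the lines. This was nearly fixed by the choice of called genes, since these libraries are part of the fit. Over all genes tested the share was 81.3%. Among 35 interferon-stimulated genes edgeR called 0, with 0 at an unadjusted p under 0.05, while DESeq2 called 1 and limma-voom 0. Without VIN-R 1, 8 were lower in ERI-R. Of 18 genes of MHC class I presentation 1 was lower (5.56% called), and 4 without VIN-R 1. The summed leukocyte markers were highest in VIN-R 2, at 7438 CPM, and their part in these lists was not tested. Among the leukocyte markers themselves only Mrc1, a macrophage mannose receptor, was called (-2.63, adjusted p = 0.04), and the call was lost without any library other than VIN-R 1 (log2 fold change -1.40, adjusted p = 0.35 without VIN-R 2). Without VIN-R 1, 4 leukocyte markers were lower.

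Hox genes keep the positional identity of a tissue. Of 18 tested Hox genes, 7 were lower in ERI-R and 2 higher (50% called, beside 29.7% over all genes tested). Hoxb8 had no count in ERI-R against 1.00, 1.28 and 1.55 CPM in VIN-R, at least 15.4-fold lower, and Hoxb6 (1 count) and Hoxb3 (2 counts) stood at 2.01, 1.005 and 1.62 and 1.42, 2.74 and 1.18 CPM in VIN-R. Hoxa13, of the A cluster, had 9.83, 6.87 and 2.00 CPM in ERI-R and 1 count over VIN-R, a ratio of 243 (95% interval 43.1 to 9625). The B cluster genes named stood at 2.74 CPM or less in every library. Prl2c2, a proliferin of the placental prolactin family, stood at 2.29, 1.297 and 0.210 against 106, 62.1 and 267 CPM (log2 fold change -6.32, SE 0.80, adjusted p = 0.00022), and its near copy Prl2c3 at 4.95, 2.06 and 0 against 138, 55.7 and 442 CPM (log2 fold change -5.77, SE 1.11, adjusted p = 0.0027), with reads that the estimate may have split between them.

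Whether the difference of the lines was the same with and without macrophage RNA was tested as an interaction. It was called for 8.67% of genes, 1233 of 14226, of which 772 had a higher log2 fold change in libraries 1 and 2 and 461 a lower one. Each line has 1 library without macrophage RNA, so the dependence on macrophage RNA cannot be told apart from ERI-R 3 standing apart. Several mesenchymal genes differed more in the libraries numbered 3. For Vim the log2 fold change was -3.86 with and -7.24 without macrophage RNA (difference 3.38, adjusted p = 0.037), for Zeb1 -3.69 and -7.44, for Cdh2 -4.04 and -7.82, and for Col4a1 -4.60 and -11.49. Among exporters, Abcc1 had -1.28 and -3.72 and Abcc4 -1.58 and -4.78. All 29 genes named here that were called for both the difference and the interaction had the same direction with and without macrophage RNA. This was nearly fixed by the choice of called genes, since 99.6% of all called genes had the same sign in the libraries numbered 3. Fitted values of a gene with no count in a library depend on the prior count of the fit. Flnc, filamin C, had no count in ERI-R 3 (7.62, 3.89 and 0 against 158, 129 and 303 CPM, log2 fold change -5.52, SE 0.98, adjusted p = 0.0017). Wnt5b (10.5, 14.1 and 52.9 against 0.251, 0.366 and 0 CPM, log2 fold change 6.74, SE 0.84, adjusted p = 0.0002) was higher in ERI-R throughout, and Lcn2, lipocalin 2, was high in ERI-R (567, 407 and 2842 CPM) and spread from 0 to 163 CPM in VIN-R (25.2, 163 and 0 CPM, log2 fold change 9.09, SE 3.31, adjusted p = 0.063, and 2.63 without ERI-R 3). Lcn2 was called with DESeq2 (adjusted p = 7.5e-07), with total counts (0.048), with the leukocyte score (0.017) and without ERI-R 1 (0.017), ERI-R 2 (0.017) or ERI-R 3 (0.044).

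**Figure D5:**
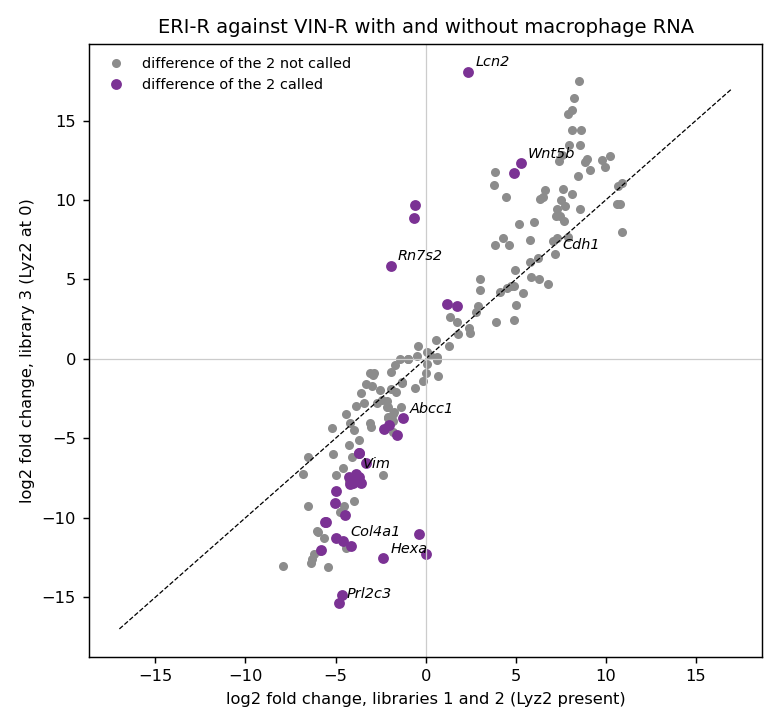
Log2 fold change of ERI-R against VIN-R for the genes named in the text, in the libraries with macrophage RNA (horizontal axis) and in those without (vertical axis), where the dashed line marks equal values. Purple points are genes whose values differed by the interaction test, 35 in all and among them Vim at -3.86 and -7.24, and grey points are those not called, such as Cdh1.

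Several of the largest interactions rested on a library numbered 3 that stood at or near 0. The gene identifier of Nnt that was called for the interaction had 21.03, 14.3 and 0 CPM in ERI-R and 11.2, 23.9 and 51.8 CPM in VIN-R, while a second identifier with that symbol had 14.2, 27.9 and 12.1 against 44.0, 20.3 and 9.38 CPM. Zc3h11a also has 2 identifiers: one stood at 111, 134 and 0.105 against 201, 121 and 237 CPM, the other at 86.6, 121 and 584 against 114, 83.5 and 48.8 CPM, so in ERI-R 3 nearly all reads of the pair were assigned to the second. How the estimate split reads between such identifiers is uncertain. Hexa, a lysosomal enzyme, stood at 30.2, 19.4 and 0 against 83.6, 173 and 61.9 CPM (log2 fold change -3.03, SE 0.94, adjusted p = 0.033), a call lost without ERI-R 2 (adjusted p = 0.088), VIN-R 2 (0.088) or VIN-R 3 (0.073), and without the macrophage term (0.16). Rn7s2, a multicopy RNA of the signal recognition particle that has no poly(A) tail of its own, stood at 1.45, 1.45 and 404 against 6.86, 4.30 and 6.87 CPM, high in ERI-R 3 alone. The leukocyte adaptor Fyb (142, 102 and 132 against 56.4, 306 and 0.148 CPM) and H2-M2 (10.97, 7.55 and 4.73 against 9.96, 18.6 and 0 CPM) were present in ERI-R 3 and at or near 0 in VIN-R 3. Neither was called for the difference of the lines by edgeR, while DESeq2 called both (adjusted p = 0.00096 and 0.022). Of 79 cytosolic ribosomal protein genes, 2 were called higher in ERI-R, 1 of them Rpl21 (1429, 2119 and 9073 against 941, 639 and 845 CPM, log2 fold change 2.07, SE 0.50, adjusted p = 0.0097), and 41 were called for the interaction. These line calls were 4 higher and 0 lower without ERI-R 1, 1 and 3 without ERI-R 3, and 0 and 0 without VIN-R 3. Without VIN-R 3, Rpl21 was not called (adjusted p = 0.065), and without ERI-R 3 its log2 fold change was 1.35.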

How the data were processed

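RNA of 12 libraries was sequenced as paired reads of 76 bases. The submitters' processing notes list RSEM 1.3.2, STAR 2.7.2b, cutadapt 2.4, bcl2fastq 2.20.0.422 and build GRCm38. Which annotation and strand option were chosen is not stated in the labels. Per the file headers, the deposited tables hold the authors' expected counts, estimates that need not be whole, and TPM. TPM was used only for beta-tubulin.

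Expected counts were rounded, scaled by TMM and tested with edgeR 4.0.16 in R 4.3.3 (quasi-likelihood, filterByExpr) on all 12 libraries, with group and the presence of macrophage RNA (Lyz2 above 100 CPM) as terms. A second fit added their interaction. The called threshold was an adjusted p of 0.05. Fold bounds took 3 counts over the 3 libraries as floor, and ratio intervals are exact at 95%. Intervals and floors cover counting error only.

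The genes and lists were chosen with earlier results of these data known. Named were the 12 largest called differences each way without overlap and at least 5 CPM, leaving out predicted genes and pseudogenes, up to 3 called genes each way from each of 42 lists at 1 CPM or more, 32 chosen genes, and up to 5 interactions each way. Of these the text gives those it turns on, and genes outside this rule were added after their values were seen (Ap1m2, Erbb2, Esr1, Esrp1, Fn1, Grhl2, Lsr, Mtap, Pgr, Prlr, Rab25 and Wincr1). For the difference of the lines, simulated data left 14026 of the 14226 genes unchanged and held no effect of macrophage RNA. In them the fit called 58.6% of 70 4-fold and 83.8% of 68 8-fold differences, and 9.68% of 62 2-fold ones. For the interaction it called 43.8% of 64 16-fold differences. In the real data 29.7% of genes were called, which makes the adjustment less strict, so these shares do not carry over to the real data. Gene positions are from GENCODE M21. Alternatives were other scalings (DESeq2 1.42.0 size factors, total counts), filters, tools (DESeq2, limma 3.58.1 voom), covariates, sample sets and leaving out each library.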

Additional observations from a re-analysis of the deposited data

Results flagged for a closer look

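For 35 of the genes named above, the difference between ERI-R and VIN-R was not the same in the libraries with macrophage RNA as in those without, by an edgeR quasi-likelihood test of the interaction. The values here are the log2 fold change with macrophage RNA minus that without, and they rest on 1 library of each line without it. Values below 0, where ERI-R was relatively higher in the libraries numbered 3, were Lcn2 -15.70, Fyb -10.28, H2-M2 -9.47, Rn7s2 -7.82, Wnt5b -7.04, Nqo1 -6.77, Rpl21 -2.26 and Smarca2 -1.58. Among values above 0, those under a log2 difference of 4 were Jag1 2.11, Ugdh 2.12, Sema3a 2.23, Axl 2.25, Abcc1 2.45, Cxcl12 3.20, Abcc4 3.20, Map6 3.20, Lgr6 3.36, Vim 3.38, Mmp3 3.69, Zeb1 3.75 and Cdh2 3.78. The others were Hmga2 4.09, Cav1 4.21, Msln 4.68, Prl2c2 4.70, Timp1 5.36, Dusp9 6.26, Col4a2 6.31, Col4a1 6.89, Grem1 7.65, Hexa 10.18, Flnc 10.20, Prl2c3 10.60, Zc3h11a 10.61 and Nnt 12.30. Of the 35 genes, 29 were also called for the difference of the lines, and all 29 had the same direction with and without macrophage RNA. Among all called genes, 99.6% had the same sign in the libraries numbered 3, so this was nearly fixed in advance. Values of genes at 0 counts in a library depend on the prior count of the fit.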

How the results depend on the processing

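With the 6 libraries alone, 1197 genes were higher in ERI-R and 1141 lower, and with no covariate 1386 were lower. Limma-voom called 751 genes for the interaction. Leaving out 1 library gave 1451 to 2422 genes higher, lowest without VIN-R 3 and highest without ERI-R 3, and 1653 to 2348 lower, lowest without VIN-R 3 and highest without VIN-R 1. With total counts 2161 were higher and 1684 lower, so 56.2% of calls were higher against 46.7% with TMM, and without ERI-R 3 the share was 56.1%. The interaction cannot be fitted without a library numbered 3. The cause of these shifts was not tested. Same-numbered libraries deviated together with correlations of 0.088, 0.578 and 0.664, while ERI-R 1 and VIN-R 2 had 0.674. Macrophage RNA also varied between libraries (summed leukocyte markers 7438 CPM in VIN-R 2 and 43.0 CPM in VIN-R 3). These correlations therefore cannot tell whether the numbers pair the samples. With the replicate block on the 6 libraries, 887 genes were higher and 768 lower. Of the 157 called genes named, 137 kept their call in that blocked fit, and 148 in every fit that left out 1 library. Many were named for their large differences, which favours this. Of all 4227 called genes, 39.1% were also called in the blocked fit and 55.2% with the 6 libraries alone. Single fits that left out 1 library shared 70.3% (without VIN-R 3) to 89.3% (without ERI-R 1) of them. No called gene named changed direction under any setting tried. Of uncalled genes, signs changed with the 8 libraries that held macrophage RNA Fyb -0.43, H2-M2 -0.50, Kif2c 0.12, Mapre1 0.18, Nnt 0.14, Rn7s2 -1.84, Stmn1 -0.34, with limma-voom H2-M2 -0.15, with no covariate H2-M2 -0.29, with DESeq2 size factors Mapre1 0.0080, with total counts Mapre1 0.072, with DESeq2 Mapre1 0.0083, with the leukocyte score Ptprc 0.14, with the 6 libraries alone Rn7s2 -0.11, Stmn1 -0.025, with the replicate block Rn7s2 -0.11, with no filter Stmn1 -0.063. The ranges over fits that left out 1 library crossed 0 for Abcb1b -0.067 to 0.71, Abcg2 -0.20 to 0.70, Adgre1 -1.67 to 0.30, Csf1r -1.92 to 0.30, Fyb -0.45 to 7.01, H2-M2 -0.49 to 3.27, Kif2c -0.45 to 0.14, Lyz2 -2.23 to 0.67, Mapre1 -0.24 to 0.20, Ptprc -1.68 to 0.73, Rn7s2 -1.59 to 3.61, Stmn1 -0.23 to 0.47, Tubb5 -0.44 to 0.076 and Tubb6 -0.019 to 0.47. The cause was not tested. In simulated data that left 14026 of 14226 genes unchanged, 6 of 62 2-fold differences were called (9.68%). With 29.7% of genes called in the real data the adjustment is less strict, so this share does not carry over.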
